A study of Mus musculus with 24 samples.

Results

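Heat shock proteins of the cytosol and the mitochondrion were described in P19, a clonal mouse line derived from an embryonal carcinoma and used as a model of pluripotent cells. The genes were 10 listed chaperones, and their members were all probe sets whose platform annotation gave one of those symbols alone. That rule found 25 probe sets for 9 of the 10 genes, against 18194 annotated genes in the whole data set, and no probe set was annotated to Hsp90ab1 alone, so that gene was not analysed here. Of the 25 probe sets, 21 lay on the chip MOE430A and 4 on the chip MOE430B, and 23 were bright enough to be tested. The 12 total RNA samples formed 4 groups of 3: cells grown as a monolayer at the stage labelled D1, cells grown in suspension at D1, monolayer cells at D2 and suspension cells at D2. Suspension culture lets P19 cells aggregate, and the series asked how aggregation alters expression. All 4 groups were grown in serum-containing alpha medium, and the labels name no inducer or genetic change. The labels do not say whether replicates came from separate cultures, so p-values measure only the spread between these samples, which may be technical.

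Heat shock proteins bind unfolded stretches of other proteins and keep them from clumping. In the cytosol, Hsp70 proteins work in a cycle that J proteins start by stimulating ATP hydrolysis and that nucleotide exchange factors reset, and Hsp90 takes over selected clients such as kinases and receptors. Mitochondria have their own folding chamber, built from Hsp60 rings (Hspd1) and an Hsp10 lid (Hspe1). Many of these genes are made in every growing cell and are made in larger amounts when heat shock factor 1 binds heat shock elements, which are inverted repeats of the unit GAA spaced by any pair of bases.

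The start regions are shown because heat shock elements are the known control sites of this family. The 250 bases before each start site given were taken from RefSeq, build GRCm38.p6. They were searched for facing units (GAANNTTC or TTCNNGAA) and for 3 alternating units (GAANNTTCNNGAA or TTCNNGAANNTTC). Each facing motif is its own reverse complement and the alternating motifs are each other's, so both strands were covered, and every alternating match also holds facing matches. Windows were given for 7 of the 10 genes, and 5 of those 7 held facing units, namely Hsph1, Hspd1, Hspe1, Dnaja1 and Hspb1. For Hspa4 and Dnajb1 these letters were not in the windows. The Hsph1 windows precede starts at positions 149636336 and 149636315, inside its annotated span (chr5:149616843-149636498, minus strand). The Hsph1 stretch printed below thus also lies inside that span. By gene, facing units occurred in 14.5% of all 27025 genes. By window, 6 of 12 member windows held them, against 12.8% of all 32851 windows, and 3 alternating units occurred in 0.466% of all windows. The 6 windows are not separate sites. Both windows of Hsph1 hold the same match, and those of Hspe1 and of the second start of Hspd1 hold the same stretch. Hspd1 and Hspe1 lie side by side on chromosome 1 and are read in opposite directions (Hspd1 at chr1:55077833-55088243, minus strand, and Hspe1 at chr1:55088148-55091317, plus strand), and their annotated spans overlap at the starts. One stretch held 4 units in a row, before the start of Hspe1 and before the second start of Hspd1 at position 55087932, while the window before the first start of Hspd1, at 55088243, did not hold these letters. The matched units are in capitals, each sequence is given 5′ to 3′ on the strand of the named gene, and a match is a description of the letters and not evidence of binding.
Hspe1, chr1:55088029-55088106, plus strand: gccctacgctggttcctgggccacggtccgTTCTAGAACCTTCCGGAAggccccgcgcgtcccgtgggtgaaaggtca
Hsph1, chr5:149636337-149636399, minus strand: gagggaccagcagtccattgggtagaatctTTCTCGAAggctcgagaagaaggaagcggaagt
Dnaja1, chr4:40722314-40722381, plus strand: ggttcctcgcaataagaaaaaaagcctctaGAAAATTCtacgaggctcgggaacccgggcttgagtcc
Hspb1, chr5:135887772-135887859, plus strand: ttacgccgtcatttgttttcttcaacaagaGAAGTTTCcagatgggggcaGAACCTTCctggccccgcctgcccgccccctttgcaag
Hspa1b, chr17:34959305-34959372, minus strand: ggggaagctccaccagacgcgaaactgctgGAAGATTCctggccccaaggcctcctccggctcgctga

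Each RNA was measured on both chips, 24 arrays in all, and signals are the authors' linear intensities, scaled alike on every array. The cells carried the marks of their label: Pou5f1, the central pluripotency factor, read 25306 to 42476 over the 12 samples, 8 of 10 pluripotency markers were above the chip's median signal on at least 3 arrays, and Zfp42 was below it on all. Of the markers of other cell types on the chips, 2 of 5 neural, 2 of 5 muscle and 2 of 6 fibroblast markers were above it on at least 3 arrays, while Pax6, Sox1, Neurog1, Myog, Myf5, Lum, Col1a1 and Col3a1 were below it on all arrays. By mean correlation, 6 of the 12 samples lay closer to another group than to their own, among them all 3 of monolayer D1. The widest gap was that of 1 sample. The sample labelled monolayer D1 replicate 2 had a mean correlation of 0.926 with the other monolayer D1 samples and of 0.95 with the monolayer D2 samples over the tested probe sets of MOE430A. The gaps of the other 5 samples were 0.003 to 0.007. The deposited experiment records give a fluidics (washing) station and a time that is headed as the hybridization date. Station and time placed the samples in 3 batches that each held all 4 groups, here called washing batches. These were station 1 and station 2 of an earlier run, and a later run with replicate 3 of every group. Station 1 held replicate 2 of each group except suspension D2, of which it held replicate 1. Station 2 held replicate 1 of each group except suspension D2, of which it held replicate 2. Array controls differed between groups as well: the 18S ribosomal RNA signal on MOE430A was 5880 to 28884 in monolayer D1, 22166 to 47004 in monolayer D2, 30850 to 50643 in suspension D1 and 38109 to 47232 in suspension D2. The ratio of 3 prime to 5 prime beta-actin signal, a sign of RNA integrity, was 0.97 to 1.13 in monolayer D1 and 1.25 to 1.33 in suspension D1 on MOE430B, without overlap, and 0.9 to 1.1 and 1.04 to 1.12 in monolayer and suspension D2. On MOE430A, which holds most of the member probe sets, it was 1.0 to 1.21 and 1.2 to 1.33 at D1 and 1.04 to 1.24 and 1.09 to 1.26 at D2, with overlap at both stages. The summed signal of 6 primitive endoderm markers was 3012 to 3742 and 2421 to 2938 in monolayer at D1 and D2, and 3829 to 5539 and 3856 to 4900 in suspension, with Afp below the chip's median on all arrays. Of the 4 tested markers of that list, Foxa2 was at 1.47 and 1.34 between cultures at D1 and D2, and Gata4 and Dab2 were at -0.58 and -0.48 at D1, where the list's median was -0.15. At D2 that median was 0.47, with 3 of the 4 above 0, and Foxa2 rose in suspension averaged over both stages (1.41 ± 0.19, adjusted p = 0.00575, limma). The part of these measures in the results was not tested.

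No member probe set passed the test in any comparison of the main fit, which had no block. The test was limma on log2 signals with Benjamini-Hochberg adjustment over all 26516 tested probe sets, and an adjusted p under 0.05 was called. Between suspension and monolayer at D1, 0 of 23 member probe sets were called, where 0.0528% of all probe sets were. At D2 it was also 0 of 23, again against 0.0528%. For D2 against D1 the counts were 0 of 23 in monolayer, against 0.00754%, and 0 of 23 in suspension, where 0.0% of all probe sets were called. Averaged over both cultures, D2 against D1 gave 0 of 23, against 0.0%, and averaged over both stages, suspension against monolayer gave 0 of 23, against 0.256%. The interaction of culture and stage also gave 0 of 23, against 0.0%. At an unadjusted p under 0.05, 0 member probe sets stood out between cultures at D1 and 0 at D2, where 5.19% and 6.68% of all probe sets did. For D2 against D1 there were 3 in monolayer and 3 in suspension, against 7.98% and 5.86%, and 5 averaged over both cultures, against 10.4%. Suspension against monolayer averaged over both stages had 1, against 8.01%, and the interaction had 2, against 3.64%. In a simulation of this design at D2, 23% of changes of 1 on the log2 scale and 73% of changes of 2 were recovered.

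**Figure D1:**
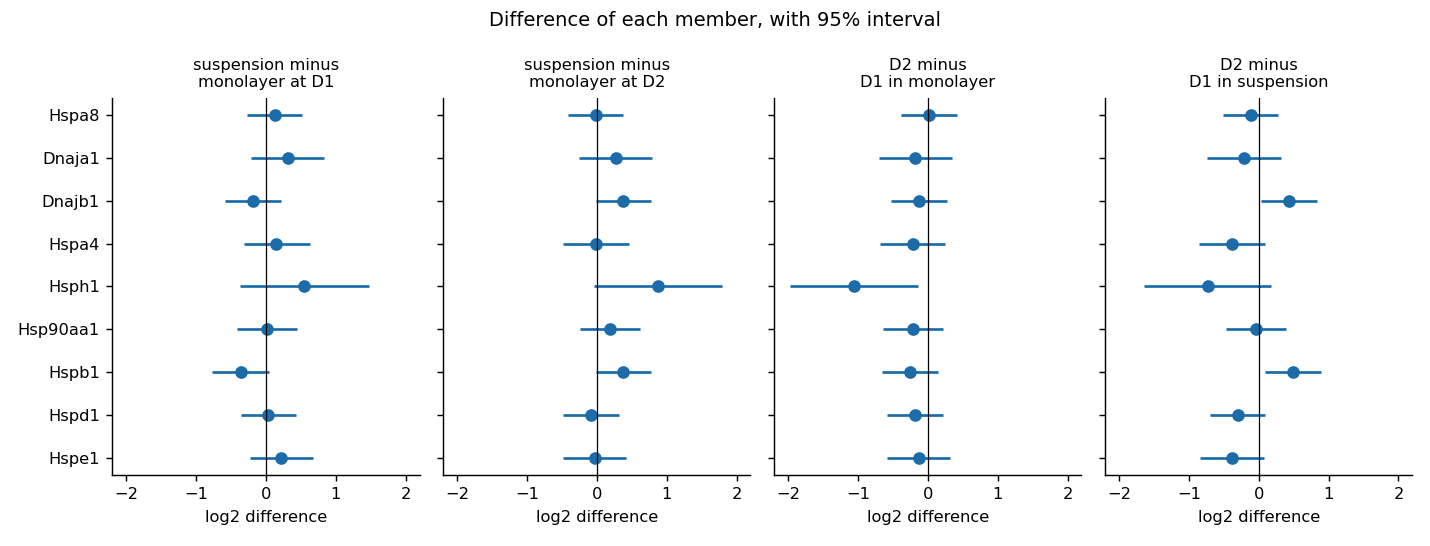
Log2 difference of each of the 9 heat shock genes, from the brightest tested probe set, in the 4 pairwise comparisons, with its 95% interval from limma (3 samples per group). Hsph1 had the widest intervals and the largest differences in size, from -1.06 for D2 minus D1 in monolayer to 0.87 for suspension minus monolayer at D2.

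Most members lay below 0 for stage in the pooled values, though not in every washing batch. Taking the brightest tested probe set of each gene, 8 of 9 members were lower at D2 than at D1 in monolayer and 7 of 9 in suspension, with median log2 differences of -0.18 and -0.22, where the median over all 12727 genes was 0.0 and 0.03. Within the earlier run, station 1, 7 of 9 members were above 0 in monolayer (median 0.27) and 6 of 9 in suspension (median 0.09). That batch holds monolayer D1 replicate 2. Without this sample 9 of 9 members were below 0 in monolayer in the pooled values, with a median of -0.41. In suspension that batch sets D2 replicate 1 against D1 replicate 2. In the earlier run, station 2, 9 of 9 were below 0 in monolayer and 7 of 9 in suspension, and in the later run 8 of 9 and 6 of 9 were. Suspension minus monolayer had a median of 0.13 at D1, with 7 of 9 members above 0, and of 0.19 at D2, with 5 of 9 above 0. The pooled direction at D1 changed without monolayer D1 replicate 2: the median was then -0.14 and 8 of 9 members were below 0. That exclusion kept suspension D1 replicate 2, the lowest of its group in the mean of the standardised member signals (-0.4 in units of SD). Of the batches without monolayer D1 replicate 2, station 2 had 6 of 9 above 0 (median 0.06) and the later run 4 of 9 (median -0.01). At D2 8, 5 and 6 of 9 were above 0 in the earlier run at station 1, at station 2 and in the later run. These comparisons share samples with each other and are not separate evidence.

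**Figure D2:**
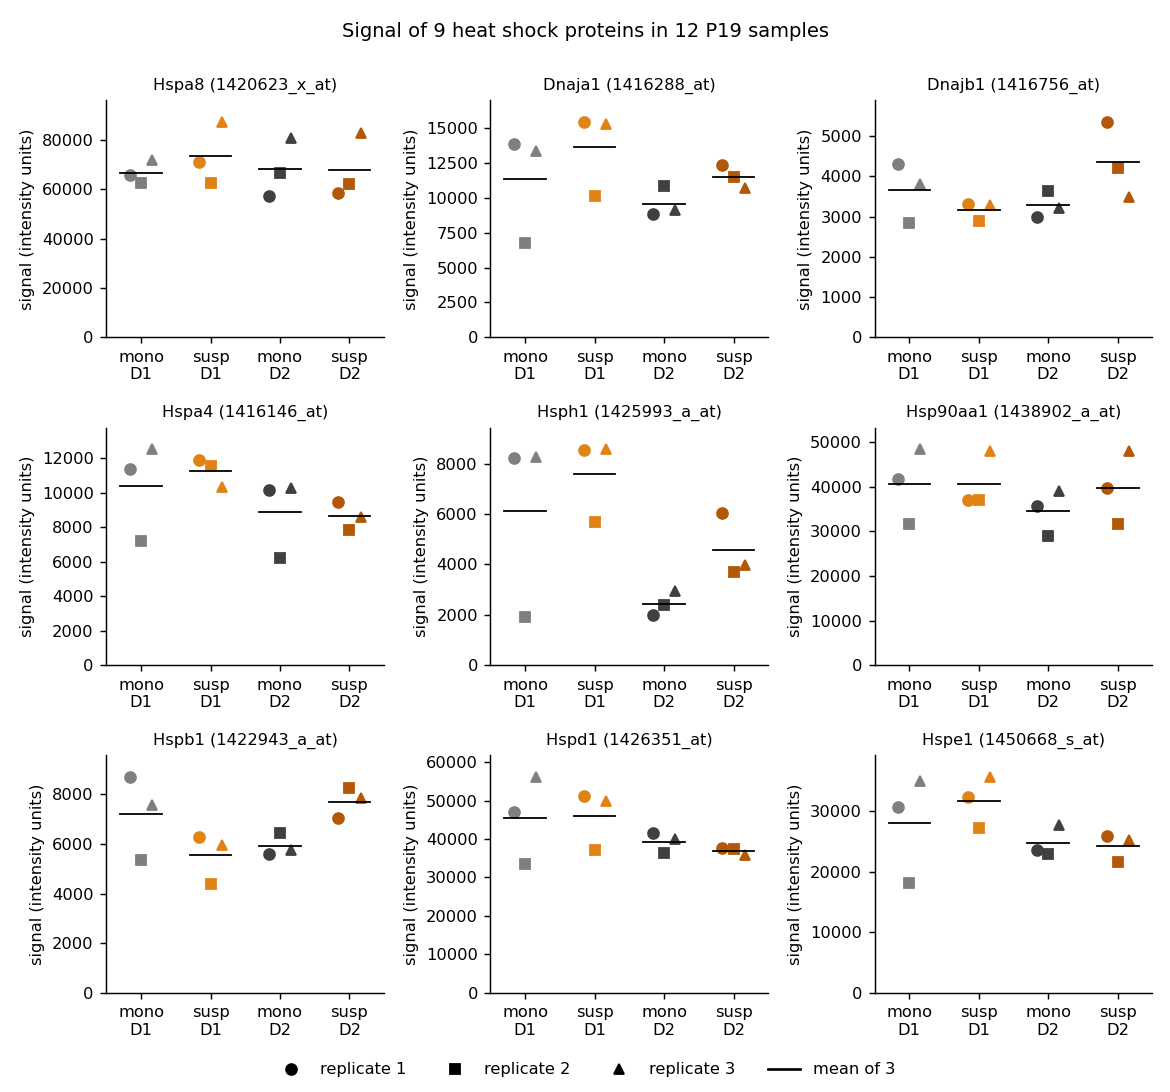
Signal of the brightest tested probe set of each of 9 heat shock genes in the 12 samples, in intensity units on axes that start at 0. Points are samples (circle, square and triangle for replicates 1, 2 and 3), bars are means of 3, and monolayer D1 replicate 2 lies far below its group in Hsph1, Dnaja1 and Hspe1.

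Hspa8 (probe set 1420623_x_at), the constitutive Hsp70 of the cytosol, was the steadiest of the Hsp70 machine. Its signal was 65793, 62810 and 71986 in monolayer D1, 70961, 62704 and 87430 in suspension D1, 57370, 66728 and 80745 in monolayer D2, and 58572, 62111 and 82709 in suspension D2. The 4 groups overlapped, and the whole span over 12 samples was 1.52-fold. Replicate 3, the later washing run, was the highest of its group in every group. The largest pairwise difference was 0.13 ± 0.18 (SE) between cultures at D1 with a 95% interval from -0.27 to 0.52. The other bright probe sets gave 48556 to 70490 (1455789_x_at) and 16522 to 26656 (1420622_a_at), with culture differences no larger than 0.12. The dimmest one (1431182_at) was near the chip's median, at 307 to 1029, and its D2 difference between cultures of 0.54 ± 0.35 did not match the -0.01 ± 0.18 of the brightest.

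Hsph1, the large Hsp105 protein that recharges Hsp70 with nucleotide, had the widest span of the 9 brightest probe sets, at 4.48-fold. That probe set (1425993_a_at) read 8224, 1911 and 8260 in monolayer D1 and 8554, 5673 and 8567 in suspension D1. At D2 it read 1981, 2401 and 2954 in monolayer and 6061, 3679 and 3988 in suspension. Monolayer D2 was low in all 3 samples and did not overlap suspension D2, while monolayer D1 was split, with replicate 2 at the level of monolayer D2. The second probe set of the gene (1423566_a_at) showed the same picture, with 5250, 2013 and 4671 in monolayer D1, 2075, 2100 and 2043 in monolayer D2, and 4037, 2475 and 2821 in suspension D2.

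D2 minus D1 in monolayer was -1.06 ± 0.43 for Hsph1 (adjusted p = 0.542, limma), and it was 0.32 in the washing batch that holds monolayer D1 replicate 2 and -2.03 and -1.47 in the other batches. Leaving out any 1 sample gave -1.75 to -0.71. Without that sample, the lowest of its group, the difference was -1.75 ± 0.24 with an adjusted p of 0.0111 in limma, and -1.24 ± 0.23 with an adjusted p of 0.0308 for the second probe set. The call for Hsph1 therefore rests on 1 sample that is itself far from its group, and the values without it are no independent test. Leaving out the same sample also took the count of all probe sets called in this comparison from 2 to 225. Averaged over both cultures, D2 minus D1 was -0.9 ± 0.3 (adjusted p = 0.292), and -1.24 ± 0.16 without that sample (adjusted p = 0.00541). Suspension exceeded monolayer at D2 by 0.87 ± 0.43 on the log2 scale, a 1.83-fold difference with an interval from -0.04 to 1.79 (adjusted p = 0.77), in 3 of 3 washing batches (1.32, 0.88 and 0.43). Groups that do not overlap were found at D2 for 3 of 23 member probe sets, both of Hsph1 and 1 of Hspb1, where 13.1% of all probe sets had them.

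Hspa4, another nucleotide exchange factor of the same family as Hsph1, was read by 1416146_at at 11387, 7204 and 12506 in monolayer D1 and 11885, 11538 and 10324 in suspension D1. At D2 the signals were 10134, 6219 and 10246 in monolayer and 9432, 7828 and 8599 in suspension. The suspension samples of D2 lay below those of D1 without overlap, with a difference of -0.38 ± 0.22 (adjusted p = 0.841) that had the same sign in 3 of 3 washing batches. Non-overlap between D1 and D2 in suspension was seen for 5 of 23 member probe sets, where 11.8% of all probe sets had it. A second probe set of Hspa4 (1416147_at) gave 1331, 1091, 1236 and 500 in the 4 samples of the later washing run and 3084 to 4113 in the other 8 samples, so it split by run and not by group. The third (1435194_at, 294 to 1008) was near the chip's median, and the one on MOE430B (1440575_at, 137 to 1380) was too dim to be tested.

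Dnaja1, a J protein that hands clients to Hsp70, followed the pattern of Hsph1 at smaller size. Its brightest probe set (1416288_at) read 13871, 6748 and 13357 in monolayer D1, 15422, 10101 and 15276 in suspension D1, 8823, 10817 and 9084 in monolayer D2, and 12322, 11453 and 10695 in suspension D2. Replicate 2 was again the lowest of both D1 groups. Suspension minus monolayer was 0.31 ± 0.24 at D1 and 0.27 ± 0.24 at D2, positive in 3 of 3 washing batches at each stage, with adjusted p-values of 0.988 and 0.904. The difference at D1 was -0.03 without monolayer D1 replicate 2. The other probe sets, 1459835_s_at on MOE430B and 1460179_at, gave 0.51 ± 0.3 and 0.33 ± 0.22 at D2.

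Dnajb1, the J protein known as Hsp40 that is strongly heat inducible, had its highest signal in suspension at D2. The brightest probe set (1416756_at) read 4314, 2841 and 3801 in monolayer D1, 3311, 2880 and 3298 in suspension D1, 3001, 3640 and 3214 in monolayer D2, and 5351, 4200 and 3491 in suspension D2. All suspension D2 samples exceeded all suspension D1 samples, by 0.43 ± 0.19 on average (interval 0.03 to 0.83, adjusted p = 0.841). The interaction was 0.57 ± 0.26 (unadjusted p = 0.0495, adjusted p = 1.0). The other probe set of Dnajb1 (1416755_at) did not show this, with -0.18 ± 0.21 for D2 minus D1 in suspension and an interaction of -0.19 ± 0.3, so the 2 probe sets disagreed in sign.

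Hspb1, the small heat shock protein Hsp27 that holds unfolded proteins without using ATP, lay on opposite sides of 0 between cultures at D1 and D2 in its brighter probe set. That probe set (1422943_a_at) read 8701, 5342 and 7576 in monolayer D1, 6280, 4386 and 5954 in suspension D1, 5583, 6446 and 5740 in monolayer D2, and 7050, 8250 and 7837 in suspension D2. Suspension was below monolayer in every washing batch at D1 (-0.28, -0.47 and -0.34) and above it in every batch at D2 (0.13, 0.56 and 0.45). The pooled differences were -0.36 ± 0.19 and 0.38 ± 0.19, and the interaction was 0.74 ± 0.26 (interval 0.18 to 1.31), with an unadjusted p of 0.0139 and an adjusted p of 1.0. The dimmer probe set (1425964_x_at, 2121 to 4290) had an interaction of 0.18 ± 0.27. Both carry a suffix that marks probes shared with other transcripts or gene family members, as do 12 of the 25 member probe sets.

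Hsp90aa1, the inducible cytosolic Hsp90, had the lowest p of the family. Probe set 1437497_a_at read 40173, 39841 and 43038 in monolayer D1 and 40979, 42350 and 38384 in suspension D1, against 35517, 28352 and 29274 in monolayer D2 and 35581, 28135 and 29178 in suspension D2. All 6 samples of D1 lay above all 6 of D2. Groups without overlap between the stages, in either direction, were found for 1 of 23 member probe sets and 0.701% of all probe sets. The difference averaged over both cultures was -0.4 ± 0.1 or 1.32-fold (interval -0.62 to -0.19, unadjusted p = 0.00137, adjusted p = 0.161, limma). It was alike in the 3 washing batches (-0.37, -0.36 and -0.48), and with any 1 sample left out it stayed between -0.45 and -0.37. With the washing batch as a block it was -0.4 ± 0.09 (adjusted p = 0.0827, limma). With the replicate number as a block, a pairing that the labels do not give, it was -0.4 ± 0.08 (adjusted p = 0.0194, limma). The call thus depends on the block. A second probe set (1426645_at) was at -0.31 ± 0.11 (adjusted p = 0.32). The brightest one (1438902_a_at) was at -0.13 ± 0.14, with 31604 to 48408 in monolayer D1 and 31569 to 48080 in suspension D2. On MOE430B, 1433251_at gave 0.05 ± 0.2 and 1441827_x_at (93 to 899) was too dim to be tested. The probe sets of Hsp90aa1 thus disagreed on the size of the stage difference, and culture made none larger than 0.19 in the 3 bright ones.

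The mitochondrial pair Hspd1 and Hspe1 had similar profiles (r = 0.88), and Hspe1 with Hsph1 came close to that (r = 0.86). The part of the start region that Hspd1 and Hspe1 share was not tested. Hspd1 (1426351_at) read 46971, 33466 and 56160 in monolayer D1, 51102, 37236 and 49893 in suspension D1, 41461, 36363 and 40083 in monolayer D2, and 37591, 37399 and 35863 in suspension D2. Hspe1 (1450668_s_at) read 30771, 18201 and 35081, then 32311, 27237 and 35674, then 23568, 22966 and 27730, and 25850, 21609 and 25186 in the same order. Replicate 2 was the lowest of both D1 groups for both genes, and the spread within groups was wider at D1 than at D2: the SD of Hspd1 was 11400 in monolayer D1 and 947 in suspension D2 (n = 3). D2 minus D1 in suspension was -0.3 ± 0.19 for Hspd1 and -0.39 ± 0.21 for Hspe1 (adjusted p = 0.848 and 0.841), and suspension minus monolayer at D2 was -0.09 ± 0.19 and -0.03 ± 0.21. The second probe set of Hspe1 (1422579_at) had -0.21 ± 0.19 for D2 minus D1 in suspension.

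Several members varied together across the 12 samples. Pearson's r between log2 signals was computed for 36 pairs of genes, each with a two-sided permutation test (100000 resamples) and adjustment over the 36 pairs. The resampling shuffled all 12 samples freely across groups and batches. It takes them as interchangeable, which the groups and batches do not ensure, so these p-values may be too small. They belong to r and rho over all samples, not to r within groups. Values for pairs of other genes are not given here. It was 0.89 between Hsph1 and Dnaja1 (Spearman's rho 0.9, unadjusted p = 7e-05 and 9e-05, adjusted p = 0.00234 and 0.00324 by permutation), 0.88 between Hspd1 and Hspe1 (rho 0.83, adjusted p = 0.00234 and 0.0119), and 0.86 between Hsph1 and Hspe1 (rho 0.87, adjusted p = 0.00468 and 0.00348). Without the 2 samples farthest from the median of the first gene these were 0.83, 0.85 and 0.82. Without monolayer D1 replicate 2 they were 0.87, 0.87 and 0.82, and on deviations from the group means they were 0.91, 0.88 and 0.94, so these pairs also varied together within groups. Hspa4 had r = 0.79 with Hspe1, 0.75 with Hspd1 and 0.71 with Hsph1 (adjusted p = 0.0135, 0.0229 and 0.0339 by permutation), and Hsp90aa1 had 0.75 with Hspe1 (adjusted p = 0.0229). Spearman's rho was 0.86, 0.8, 0.73 and 0.74 for these pairs (adjusted p = 0.00549, 0.0162, 0.0393 and 0.0391 by permutation), and r without the 2 farthest samples was 0.77, 0.72, 0.53 and 0.7. The window of Hspa4 held no match to the motif and Hsp90aa1 had no window. The part of the motif in these correlations was not tested. Dnajb1 and Hspb1 had r = 0.75 and rho = 0.9 (adjusted p = 0.0229 and 0.00348), with 0.9 without the 2 farthest samples and 0.58 on deviations from the group means. Over all samples r was low between Dnajb1 and Hspd1 (0.09), Hspe1 (0.14) and Hspa8 (-0.21), and on deviations from the group means it was 0.54, 0.59 and -0.13. Within groups Hspb1 lay closer to Dnaja1 (0.91), Hspd1 (0.75) and Hsph1 (0.73) than to Dnajb1, and Dnajb1 closer to Dnaja1 and Hsph1 (both 0.8) than to Hspb1, so Dnajb1 and Hspb1 were not a separate pair there. A washing batch holds 4 samples, too few for a value of its own, and signals of one sample share an array and its scaling, whose part in these correlations was not tested.

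**Figure D3:**
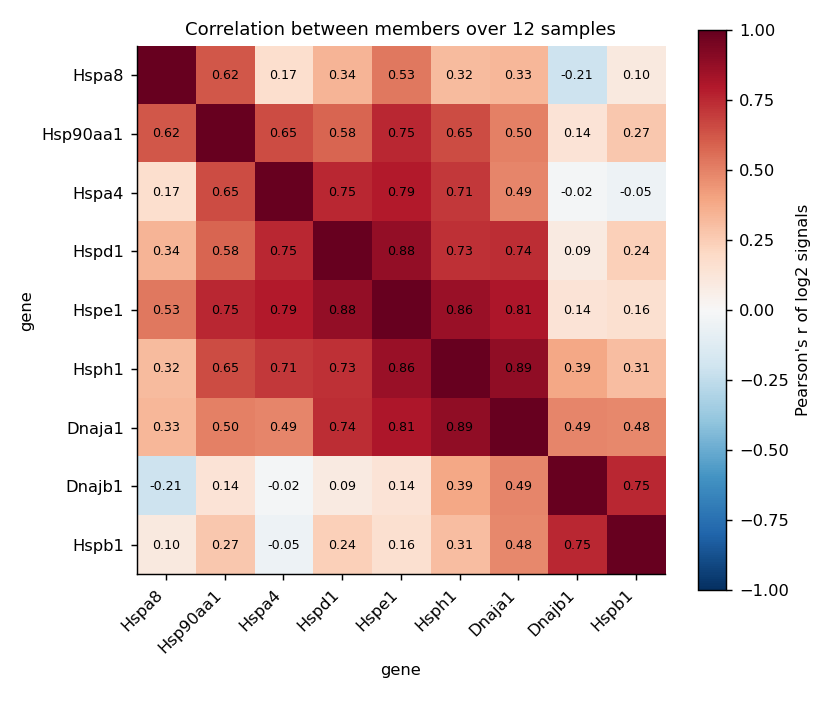
Pearson's r between the log2 signals of each pair of 9 heat shock genes over 12 samples, on a colour scale from -1 to 1. Pairs among Hspd1, Hspe1, Hsph1 and Dnaja1 run from 0.73 to 0.89, Hspa4 reaches 0.79 with Hspe1 and 0.71 with Hsph1, and the value for Dnajb1 with Hspb1 is 0.75. Values within groups differ and are given in the text.

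The inducible Hsp70 genes Hspa1a and Hspa1b, which are not among the 10 listed genes, were read well above their usual level in a pair of samples. They are near-identical neighbours on chromosome 17, with 247 of 250 bases the same before their starts. Their transcripts, which the probes read, were not compared here, so the probe sets were not taken to tell them apart. The brightest probe set annotated to Hspa1b (1427127_x_at) read 8052 and 8566 in suspension D2 replicates 1 and 2 but 387 in replicate 3, against 355 to 1211 in the other 9 samples. The other probe sets of Hspa1b read 4428, 5245 and 293 (1427126_at) and 3992, 4936 and 371 (1452318_a_at) in the same samples, and that of Hspa1a (1452388_at), too dim elsewhere to be tested, read 2438, 2157 and 431 against 18 to 350. Replicates 1 and 2 were thus high in all 4 probe sets. Replicate 3 lay within the range of the other 9 samples in the probe sets of Hspa1b and above it, at a far lower level than replicates 1 and 2, in that of Hspa1a.

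Suspension minus monolayer at D2 was 2.51 ± 0.83 for Hspa1b (adjusted p = 0.517, limma), and 3.72, 3.74 and 0.06 within the 3 washing batches, the last being the later run. With suspension D2 replicate 1, 2 or 3 left out it was 1.82, 1.78 or 3.93 (adjusted p = 0.948, 0.658 and 0.00546). D2 minus D1 in suspension was 2.25 ± 0.83 (adjusted p = 0.841), and 1.56, 1.51 or 3.66 with replicate 1, 2 or 3 left out (adjusted p = 0.828, 0.941 and 0.0121). Replicate 3 is the sample without the high signal, so the values without it describe its weight and are no test of the difference. The same samples gave Dnajb1 its 5351 and 4200 beside 3491 in replicate 3, while Hspb1 was as high in replicate 3 (7837) as in replicates 1 and 2 (7050 and 8250). Hsph1 was highest in replicate 1 (6061) and alike in replicates 2 and 3 (3679 and 3988), and Hspa8 was higher in replicate 3 (82709) than in replicates 1 and 2 (58572 and 62111). Replicate 3 was in the later run, whose part in the split was not tested. From RNA of whole cultures, more RNA per cell and more cells that make it cannot be told apart.

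**Figure D4:**
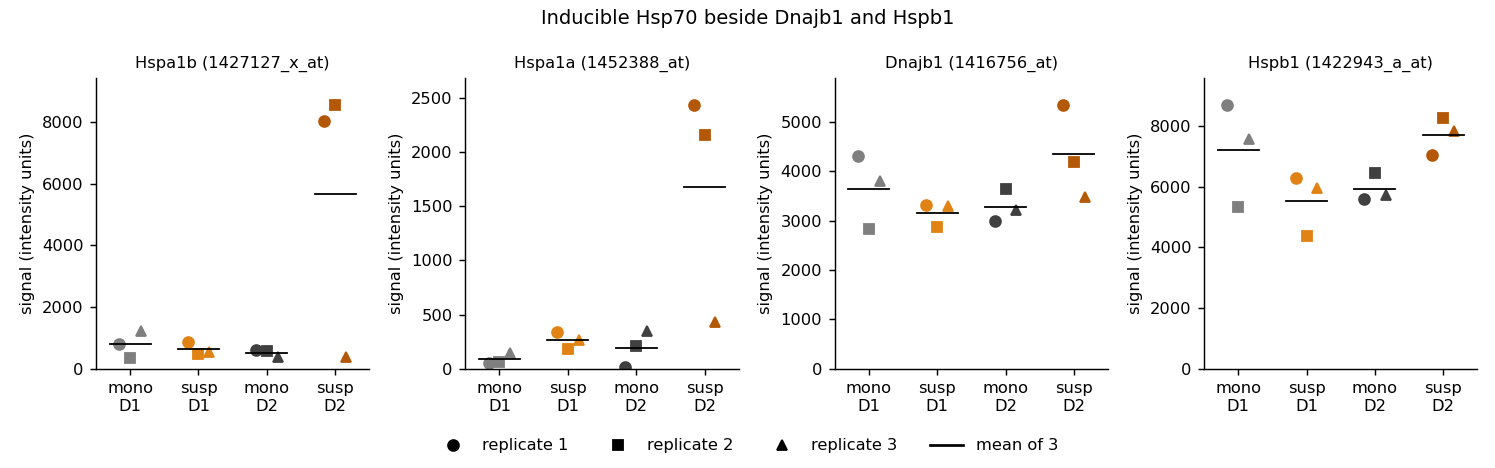
Signal of Hspa1b, Hspa1a, Dnajb1 and Hspb1 in the 12 samples, in intensity units on axes that start at 0. Points are samples by replicate and bars are means of 3. Suspension D2 replicates 1 and 2 stand at 8052 and 8566 for Hspa1b while replicate 3 reads 387.

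The wider chaperone network gave no call in any comparison either, in lists chosen with earlier results of these data known. Of 23 co-chaperones of Hsp70 and Hsp90, 0 rose and 0 fell, and 19 were below 0 for D2 minus D1 averaged over both cultures, with a median of -0.14. The lowest p among them for D2 minus D1 in suspension was that of Hspbp1, an exchange factor for Hsp70, at -0.66 ± 0.24 (adjusted p = 0.841). Of the cytosolic TRiC and prefoldin folding complexes, 0 of 14 genes rose or fell, with a median of -0.1 for D2 minus D1 averaged over both cultures and -0.44 ± 0.11 for the TRiC subunit Cct8 (adjusted p = 0.17). Among the other Hsp70 and J proteins, Dnajc9, a J protein of the histone pathway, was at -0.45 ± 0.1 (adjusted p = 0.131). The 5 tested genes listed by symbol as other small heat shock proteins were Hspb2, Hspb6, Hspb7, Hspb8 and Hspb11. They were all above 0 for D2 minus D1 in suspension (0.07 to 0.59), with a median of 0.38 and 0 called. That median is the value of Hspb11, whose place on the list rests on its symbol alone. The median of the 5 averaged over both cultures was 0.24. Of the heat shock factors and their regulators, 4 genes were tested, namely Hsf2, Hsf4, Hsf5 and Hsbp1. None was called, with medians from -0.09 to 0.26 in the 4 pairwise comparisons. Heat shock factor 1 (Hsf1) was not among the tested genes, so these values say nothing of it.

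The mitochondrial list of 18 tested genes, which holds neither Hspd1 nor Hspe1, had 0 called and medians of 0.18 in monolayer (12 above 0) and 0.04 in suspension (10 above 0) for D2 minus D1. Its member with the lowest p was Hspa9, and others such as Grpel1 (-0.48), Dnajc15 (-0.46) and Afg3l2 (-0.62), chosen after their values were seen, were below 0 in monolayer. Hspa9, the Hsp70 of the mitochondrial matrix and partner of Hspd1 in import and folding, read 10361, 11784 and 11318 in monolayer D1 and 17622, 17893 and 17708 in monolayer D2. Averaged over both cultures its D2 minus D1 difference was 0.42 ± 0.11 (adjusted p = 0.176), where Hspd1 was at -0.24 ± 0.13. The 18 tested ER chaperones had a median of 0.61 for D2 minus D1 in monolayer, of 0.01 in suspension (9 above and 9 below 0) and of -0.57 for suspension minus monolayer at D2, with 0 called, where the heat shock proteins had -0.18, -0.22 and 0.19. Hsp90b1, the ER paralog of Hsp90aa1, read 11071, 11073 and 10480 in monolayer D1 and 16168, 18139 and 16715 in monolayer D2. The difference was 0.64 ± 0.14 (adjusted p = 0.224, limma), against -0.22 ± 0.2 for the brightest probe set of Hsp90aa1. In the same comparison 15 of the 18 ER chaperones were above 0. Hspa5, the Hsp70 of the ER, was not, at -0.12 against 0.02 for Hspa8.

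**Figure D5:**
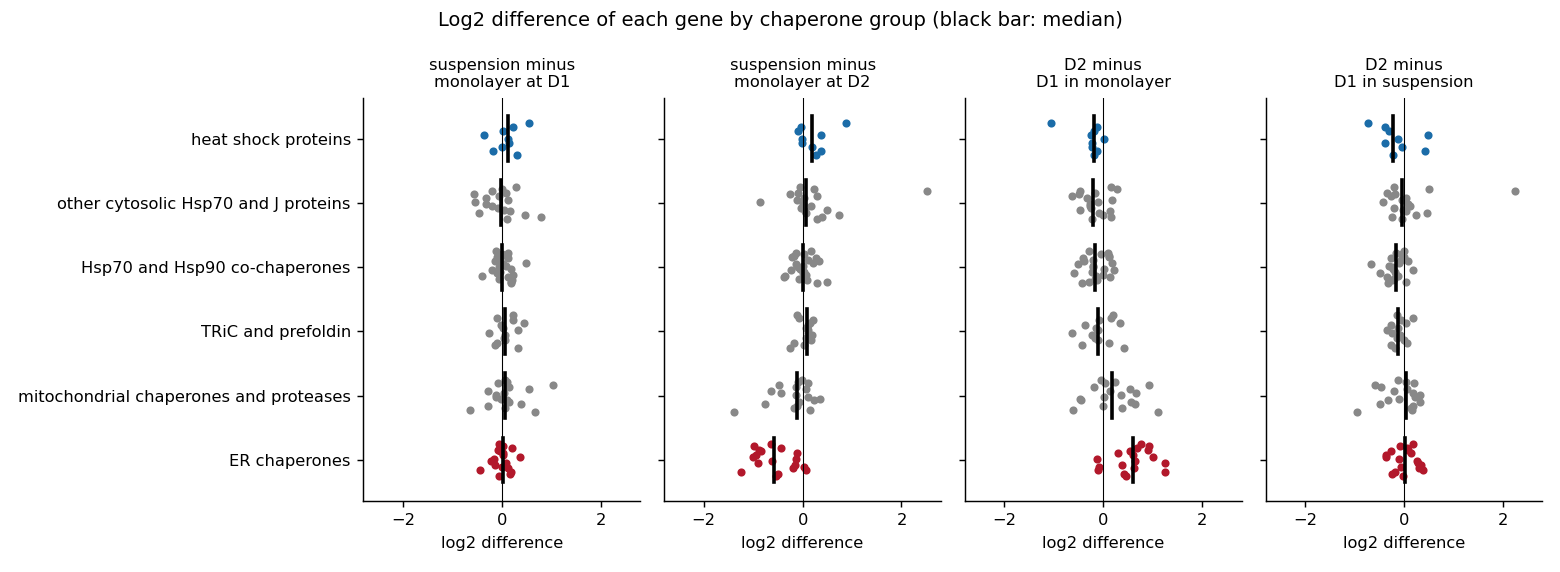
Log2 difference of each tested gene (points) in 6 chaperone groups, in the 4 pairwise comparisons, with the group median as a black bar. The median of the ER chaperones is 0.61 for D2 minus D1 in monolayer and -0.57 for suspension minus monolayer at D2, and the median of the heat shock proteins is -0.18 and 0.19. The far point among the other Hsp70 and J proteins is Hspa1b.

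The genes whose profiles were most like the mean of the standardised member profiles over the 12 samples were Hnrnpdl (r = 0.947), Ssr2 (0.944), Smim11 (0.943), Tomm40l (0.941), Lsm1 (0.932), Med8 (0.932), Prkd3 (0.929) and Mettl5 (0.923). These are the highest of 12727 genes and are given as a description. The member mean itself was lowest in monolayer D1 replicate 2, at -1.33 in units of SD, and highest in monolayer D1 replicate 3, at 1.0, so the widest gap of that mean lay between replicates of one group.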

How the data were processed

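P19 RNA samples (12, on 2 chips each) were grouped by the sample labels. Each array came with one deposited intensity for every probe set on a linear scale, computed by the authors with MAS5 per the submitters' processing notes. The authors' scaling gave a 2% trimmed mean of 1500 or 1501 on every array and was kept. Detection calls were not used here. Signals were converted to log2 after adding the chip's 10th percentile (51 on MOE430A, 108.1 on MOE430B), which understates folds of dim genes. The deposited intensities carry no depth, and the number of arrays limits precision. Probe sets were tested if at least 3 of 12 arrays exceeded the chip's median (599.8 and 846.4), which left 26516. Fits used limma 3.58.1 in R 4.3.3, with a mean per group and trended moderated variance, and two-sided p-values adjusted over both chips. Summaries used Python 3.11.15 with pandas 2.3.3. The script was tested on simulated data, with 7 false calls among 26516 probe sets. Annotation gave 1 symbol for 35067 probe sets, several for 936 and none for 9262, and 0 symbols changed when updated to RefSeq. A gene was represented by its brightest tested probe set. Other named genes were up to 4 per comparison with the lowest p on the chaperone lists, the 8 most alike in profile, and checks of the cell type. Hspa1a was named after its values were seen. The 10 listed genes and all lists were chosen with earlier results of these data known. Alternatives covered offset, filter, normalization, blocks, weights, groups fitted, each sample left out and, chosen after seeing the data, the later washing run left out.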

Additional observations from a re-analysis of the deposited data

Results flagged for a closer look

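Hspb1 (probe set 1422943_a_at) was marked because suspension lay below monolayer in every washing batch at D1 and above it in every batch at D2. The interaction of culture and stage was 0.74 ± 0.26 on the log2 scale, with an adjusted p of 1.0 in limma, and 0.18 ± 0.27 in the other probe set of the gene. Groups of 3 are too small for the check of single samples that stand apart.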

How the results depend on the processing

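Across 25 alternatives, the count of member probe sets past the test was 0 in suspension minus monolayer at D1, at D2 and averaged over both stages, in D2 minus D1 in suspension and in the interaction. It ranged from 0 to 2 for D2 minus D1 in monolayer and averaged over both cultures when 1 sample was left out, the 2 being both probe sets of Hsph1 without monolayer D1 replicate 2. For D2 minus D1 averaged over both cultures it was 1 with array weights (Hsph1, -1.12 ± 0.24, adjusted p = 0.035) and 1 with the replicate block (Hsp90aa1, -0.4 ± 0.08, adjusted p = 0.0194). No paired design is shown by the labels. Same-numbered samples of different groups correlated in their deviations at 0.1 to 0.388 on MOE430A, where 36 of 36 correlated best with their own number, and at 0.01 to 0.161 on MOE430B, where 33 of 36 did. This is a hint of pairing from the data. An r above 0.1 in every pair was required, and 17 of 18 pairs on MOE430A and 10 of 18 on MOE430B had it. The main tests therefore take no account of pairing by number. On MOE430A suspension D2 replicate 2 had r = 0.272 with monolayer D1 replicate 2. Suspension D2 replicate 1, which shares that sample's washing batch, had -0.119 with it. With the replicate block, the number of all probe sets called was 30 and 89 for suspension minus monolayer at D1 and D2 (14 and 14 without it), 193 and 0 for D2 minus D1 in monolayer and suspension (2 and 0), 595 and 220 for the averages over cultures and stages (0 and 68) and 0 for the interaction (0). With the washing batch as a block they were 15, 18, 0, 0, 25, 102 and 0 in the same order. Without the later washing run the counts for suspension minus monolayer were 0, 1 and 14 at D1, D2 and averaged. Leaving out 1 sample gave 0 to 13, 5 to 21, 0 to 225, 0 to 2, 0 to 514 and 36 to 79 in the same order of the first 6 comparisons. The member median of suspension minus monolayer at D2, 0.19, was 0.13 with median centring, 0.14 without the later washing run, 0.12 with the mean over a gene's probe sets and 0.15 over all probe sets, and 0.04 to 0.27 with 1 sample left out. That of the interaction, -0.04, was -0.21 with median centring, 0.09 with array weights and 0.05 with the mean over probe sets, and -0.2 to 0.29 with 1 sample left out. With 1 sample left out, the other medians spanned -0.14 to 0.2 (suspension minus monolayer at D1), 0.01 to 0.15 (averaged over stages), -0.41 to -0.07 and -0.36 to -0.12 (D2 minus D1 in monolayer and in suspension) and -0.35 to -0.11 (averaged over cultures). Of 1422 values of single members under alternatives, 1411 moved by less than the spread between replicates, taken as the SD of single samples. Many of these values could not move. A sample left out of another group, or a block that holds every group, does not change a difference of group means. The count is therefore no measure of robustness. The cause of the changes was not tested.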
